A study of Mus musculus with 12 samples.

Results

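The interferon-gamma-inducible GTPases described here are 10 genes: the guanylate-binding protein genes Gbp2, Gbp3, Gbp6 and Gbp7, and the immunity-related GTPase genes Igtp, Irgm1, Irgm2, Iigp1, Ifi47 and Tgtp1. They were taken by symbol from the 15846 genes of the count table, and all 10 passed the filter on low counts that left 14736 genes for testing. The livers came from C57BL/6 mice aged 5 months, in 4 groups of 3, and their RNA was sequenced. These were Shp Hep-/- mice, here KO, on the diet labelled HFCF, KO mice on chow, wild type (WT) mice on HFCF and WT mice on chow. Shp (gene symbol Nr0b2) encodes a nuclear receptor that lacks a DNA-binding domain and acts as a corepressor, and the label places its deletion in hepatocytes. The promoter that drove the deletion and the makeup and duration of the diet are not given in the sources used here.

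Interferon-gamma, released by T cells and natural killer cells, binds its receptor and signals through the kinases JAK1 and JAK2 to induce these GTPases in macrophages, hepatocytes and many other cell types. Guanylate-binding proteins (GBPs) are large dynamin-related GTPases that coat bacteria and the vacuoles of intracellular parasites. Immunity-related GTPases (IRGs) fall into regulators, Irgm1, Irgm2 and Igtp (also called Irgm3), which sit on host membranes and keep the effectors inactive there, and effectors such as Iigp1 (Irga6), Ifi47 (Irgd) and Tgtp1 (Irgb6), which load onto parasite vacuoles. Type I interferons, through a receptor of their own, reach many of the same genes.

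Of the 10 genes, 8 had a promoter window in the RefSeq table for GRCm38.p6, running from 250 bases before the start to 50 bases after it. The windows were searched on both strands for the interferon-gamma activation site GAS, spelled TTCNNNGAA, which reads the same on either strand, and for the interferon-stimulated response element ISRE, spelled as GAAA, any 2 bases and GAAA again, or as TTTC, any 2 bases and TTTC where it lies on the other strand. The 110 bases before the start are shown for 5 genes, the 4 that hold both motifs and Irgm1, which holds overlapping ISRE matches. Gbp3 holds overlapping ISRE matches too and is not shown. Capitals mark the matches.
Gbp7, chr3:142530226-142530335, plus strand: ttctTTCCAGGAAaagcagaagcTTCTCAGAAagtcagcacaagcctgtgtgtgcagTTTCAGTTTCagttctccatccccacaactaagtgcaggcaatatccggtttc
Igtp, chr11:58199446-58199555, plus strand: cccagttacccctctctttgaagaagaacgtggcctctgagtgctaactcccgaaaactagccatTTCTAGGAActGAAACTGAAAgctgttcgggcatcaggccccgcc
Irgm2, chr11:58214867-58214976, plus strand: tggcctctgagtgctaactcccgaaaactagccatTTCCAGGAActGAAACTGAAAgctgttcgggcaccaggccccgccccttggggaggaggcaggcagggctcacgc
Irgm1, chr11:48871421-48871530, minus strand: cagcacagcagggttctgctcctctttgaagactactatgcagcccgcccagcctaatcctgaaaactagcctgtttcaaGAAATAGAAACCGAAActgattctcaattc
Tgtp1, chr11:48992247-48992356, minus strand: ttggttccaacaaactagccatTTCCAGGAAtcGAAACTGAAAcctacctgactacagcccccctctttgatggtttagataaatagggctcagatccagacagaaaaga

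An ISRE match lay in the windows of 7 of these 8 genes (Gbp2, Gbp3, Gbp7, Igtp, Irgm1, Irgm2 and Tgtp1), and a GAS match in 4 (Gbp7, Igtp, Irgm2 and Tgtp1). Among all 32851 windows of the table, 3.44% held an ISRE, 8.3% a GAS and 0.454% both. The ISRE matches lay between positions -77 and -15 and the GAS matches between -106 and -37, counted back from the start. In Igtp, Irgm2 and Tgtp1 the GAS and the ISRE had the same order and were separated by 2 bases. The Igtp and Irgm2 windows shared an unbroken run of 61 bases that begins at -11 in Igtp and -41 in Irgm2, downstream of the motifs. Around the motifs their printed sequences also matched, broken only by single bases. Irgm2 and Tgtp1 shared a run of 20 bases, from -86 in Irgm2 and -99 in Tgtp1, that takes in the GAS. The motif blocks of these genes thus lie partly in shared sequence. In Gbp7 the GAS matches came first and the ISRE lay 25 bases beyond the nearer one. The Ifi47 window held neither spelling, and Gbp3 had a second window with neither. A match is a description of letters and not a measured binding site.

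**Figure D1:**
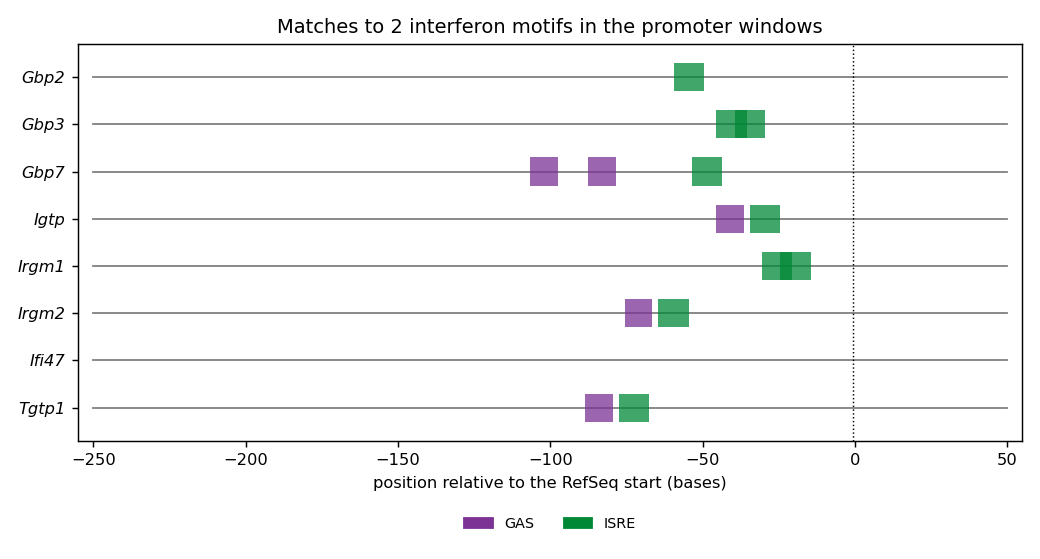
Matches to the GAS (purple) and ISRE (green) spellings in the RefSeq promoter windows of 8 GTPase genes, by position in bases relative to the start (dotted line). 7 of the 8 windows hold an ISRE between -77 and -15, 4 hold a GAS, and darker blocks are overlapping ISRE matches.

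Levels are given as CPM, read counts scaled to library size with TMM factors. A ± marks the SD over 3 livers where it follows a CPM or FPKM, and the standard error where it follows a change on the log2 scale. Unless another fit is named, an adjusted p comes from edgeR's quasi-likelihood test of all 12 libraries, with Benjamini-Hochberg adjustment across the 14736 genes. A gene is called at an adjusted p under 0.05. The standard error is not an output of edgeR. It was taken as the size of the log2 fold change divided by the square root of the test's F statistic. The 95% intervals were built from it with a t quantile, so both are approximate. Each p-value sets a difference against a spread between livers within groups of 3, estimated over all groups together and partly shared across genes. Libraries held 13967116 to 18324134 counts. Nr0b2 had 0.509, 0.21 and 0.394 CPM in KO HFCF livers and 0.775, 0.552 and 1.01 CPM in KO chow livers, against 47.6, 49.6 and 53.4 CPM in WT HFCF livers and 49.3, 22.4 and 31 CPM in WT chow livers. All 6 KO libraries thus lay below all 6 WT libraries in the deleted gene. Hepatocyte markers summed to 51600 to 65700 CPM over the 12 libraries, from 8 listed genes with values. WT HFCF replicate 1 stood apart from its group: a chi-square of counts, divided by its degrees of freedom, came to 32.17 and 34.42 for its pairs and to 11.21 for the pair without it. It also held the highest level of its group for 9 of the 10 GTPases, and the lowest for Iigp1. Results that rest on this library are therefore given with and without it.

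The deletion of Shp went with higher levels of the whole set. On HFCF all 10 genes were called up in KO livers, where 10.6% of all tested genes were called up and 8.52% down, and on chow 9 of 10 were called up, where 9.72% of all genes were called up and 5.82% down. The median log2 fold change of the 10 was 1.37 on HFCF and 1.55 on chow, against medians over all genes of 0.02 and 0.00. The 3 KO libraries lay above the 3 WT libraries without overlap for all 10 genes on HFCF and for 9 on chow, where 18.5% and 19.4% of all genes did. Both comparisons were called for 9 members, and for 5.32% of all tested genes. Without WT HFCF replicate 1 all 10 were again called on HFCF. For HFCF against chow, 3 members were called up in WT and 0 in KO, where 7.76% and 1.47% of all genes were called up. The WT count ran from 0 to 4 with 1 library left out. The interaction of genotype and diet was called for 0 members and for 0.794% of all genes. In whole liver, more cells of a type and more RNA per cell cannot be told apart, and markers of macrophages and B cells were also higher in KO livers, with their values given further on.

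**Figure D2:**
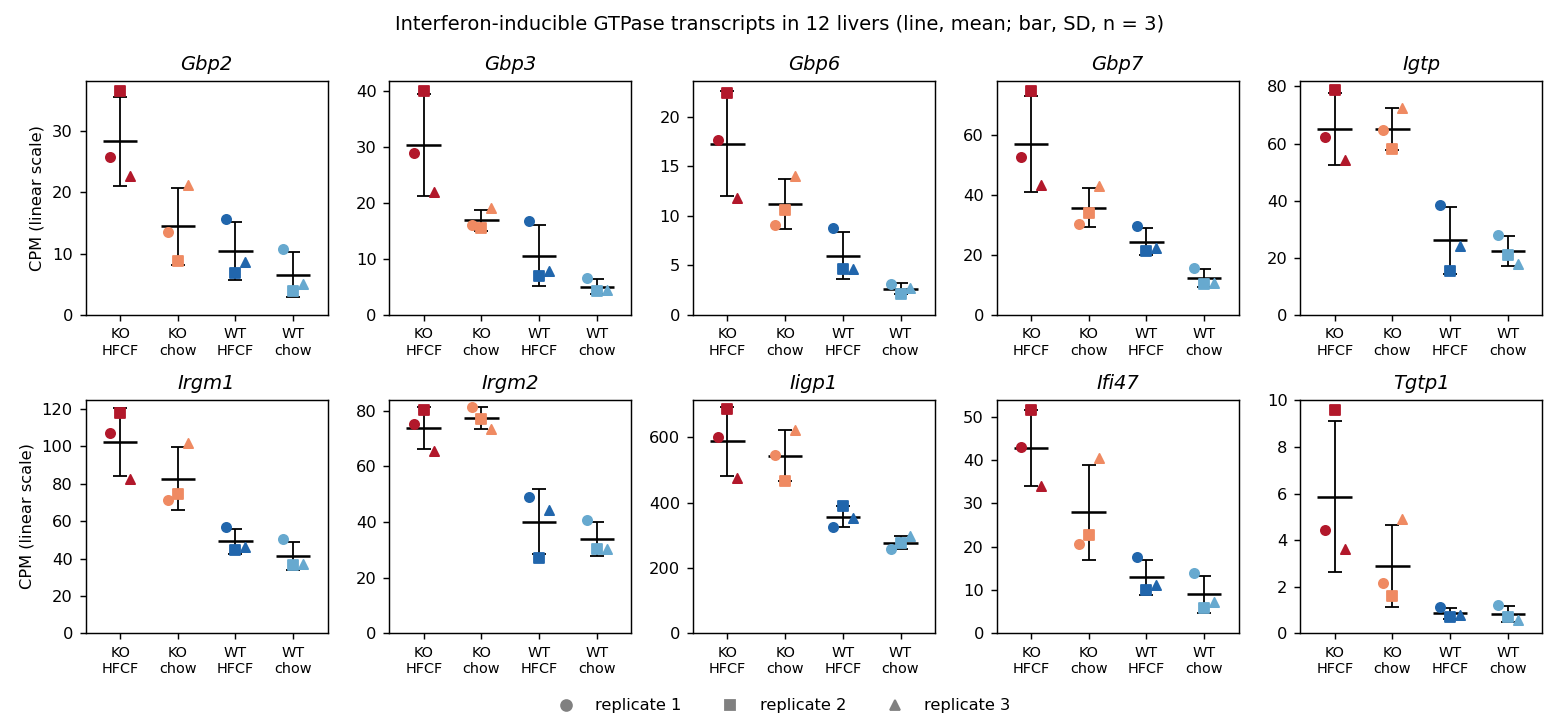
CPM of the 10 GTPase genes in each of 12 livers by group, on linear axes that start at 0 and differ between panels; symbols are replicates, lines the group mean and bars the SD (n = 3). For 8 genes, all except Gbp2 and Gbp3, every KO library lies above every WT library.

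Gbp2 (ENSMUSG00000028270, mm10 chromosome 3, 142620602 to 142638008, plus strand) encodes a GBP that is recruited to the Toxoplasma vacuole in mouse cells. It had 25.8, 36.5 and 22.7 CPM in KO HFCF livers and 13.5, 8.76 and 21.2 CPM in KO chow livers, against 15.7, 6.82 and 8.7 CPM in WT HFCF livers and 10.7, 3.96 and 5.05 CPM in WT chow livers. The KO livers were above the WT livers without overlap on HFCF, while on chow KO replicate 2 lay below WT replicate 1. The log2 fold change was 1.43 ± 0.37 on HFCF (edgeR adjusted p = 0.0144). On chow it was 1.14 ± 0.40 and was not called (edgeR adjusted p = 0.0678), with a 95% interval of 0.29 to 2.00. The HFCF call ended without WT HFCF replicate 2 (edgeR adjusted p = 0.0635) or KO HFCF replicate 2 (0.0717). The chow difference was called without WT chow replicate 1 (edgeR adjusted p = 0.0251) or KO chow replicate 2 (0.0435).

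Gbp3 (ENSMUSG00000028268, chromosome 3, 142560052 to 142573209, plus strand) and Gbp7 (ENSMUSG00000040253, chromosome 3, 142530338 to 142550083, plus strand) lie beside Gbp2 in a GBP gene cluster. Gbp3 had 29, 40 and 21.9 CPM in KO HFCF livers and 16.1, 15.6 and 19.1 CPM in KO chow livers, against 16.8, 7.02 and 7.86 CPM in WT HFCF livers and 6.58, 4.18 and 4.36 CPM in WT chow livers. The WT HFCF replicate 1 value of 16.8 CPM reached into the KO chow range. Gbp3 rose by 1.50 ± 0.29 on HFCF (edgeR adjusted p = 0.00249) and by 1.75 ± 0.32 on chow (edgeR adjusted p = 0.00289). Gbp7, reported in mouse macrophages to take part in NADPH oxidase assembly, had 52.7, 74.8 and 43.5 CPM in KO HFCF livers and 30.3, 34.1 and 43 CPM in KO chow livers, against 29.7, 21.3 and 22.4 CPM in WT HFCF livers and 15.7, 10.3 and 10.6 CPM in WT chow livers. The lowest KO library stood just above the highest WT library, at 30.3 and 29.7 CPM. Gbp7 rose by 1.21 ± 0.21 on HFCF (edgeR adjusted p = 0.00123) and by 1.55 ± 0.22 on chow (edgeR adjusted p = 0.000583).

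Gbp6 (ENSMUSG00000079362, chromosome 5, 105270704 to 105293699, minus strand) belongs to a second GBP cluster. It had 17.7, 22.4 and 11.8 CPM in KO HFCF livers and 9.08, 10.6 and 14 CPM in KO chow livers, against 8.76, 4.59 and 4.64 CPM in WT HFCF livers and 3.15, 2.12 and 2.7 CPM in WT chow livers. The WT chow libraries were lowest, and all of them lay below the WT HFCF libraries. Gbp6 rose by 1.51 ± 0.27 on HFCF (edgeR adjusted p = 0.00169) and by 2.08 ± 0.31 on chow (edgeR adjusted p = 0.000782), the highest of the 10 on chow. Its identity is uncertain: the annotation in hand (GENCODE, same build) names this ID Gm43302, with a span that covers Gbp10 and Gbp6. Gbp10, a near-identical copy, rose by 1.49 ± 0.46 on HFCF (edgeR adjusted p = 0.0381) and by 2.21 ± 0.57 on chow (edgeR adjusted p = 0.0202), and the counting could split reads between these rows. The row that the files name Gbp5, which the annotation in hand names Gbp2b, rose by 1.59 ± 0.31 on HFCF (edgeR adjusted p = 0.00273) and by 1.58 ± 0.35 on chow (0.00901). The row that the files name Gbp1, matched to Gbp2b through older symbols, was not called, at 0.61 ± 0.25 on HFCF (edgeR adjusted p = 0.113) and 0.36 ± 0.28 on chow (0.427), so which row holds Gbp2b is uncertain.

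Among the regulators, Igtp (ENSMUSG00000078853, chromosome 11, 58199556 to 58207591, plus strand) had 62.4, 78.7 and 54.1 CPM in KO HFCF livers and 64.8, 58 and 72.6 CPM in KO chow livers, against 38.5, 15.5 and 24.2 CPM in WT HFCF livers and 28.1, 21 and 17.8 CPM in WT chow livers. Within each genotype the diets overlapped. Igtp rose by 1.31 ± 0.25 on HFCF (edgeR adjusted p = 0.00267) and by 1.55 ± 0.26 on chow (edgeR adjusted p = 0.00154). Its neighbour Irgm2 (ENSMUSG00000069874, chromosome 11, 58215028 to 58222780, plus strand) had 75.1, 80.4 and 65.6 CPM in KO HFCF livers and 81.3, 77 and 73.4 CPM in KO chow livers, against 49.1, 27 and 44.3 CPM in WT HFCF livers and 40.9, 30.4 and 30.4 CPM in WT chow livers. KO livers on either diet sat in 1 band, above every WT liver. Irgm2 rose by 0.87 ± 0.17 on HFCF (edgeR adjusted p = 0.00346) and by 1.19 ± 0.18 on chow (edgeR adjusted p = 0.00075). The GENCODE entry of Irgm2 spans Igtp, although their rows in the deposited table do not overlap.

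Irgm1 (ENSMUSG00000046879, chromosome 11, 48861968 to 48871683, minus strand), the regulator also known for a part in autophagy, had 107, 118 and 82.3 CPM in KO HFCF livers and 71.4, 74.5 and 102 CPM in KO chow livers, against 56.8, 44.4 and 46.4 CPM in WT HFCF livers and 50.3, 36.5 and 37.3 CPM in WT chow livers. The genotypes did not overlap, and the diets did within each. Irgm1 rose by 1.06 ± 0.17 on HFCF (edgeR adjusted p = 0.00075) and by 1.00 ± 0.17 on chow (edgeR adjusted p = 0.002).

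Of the effectors, Iigp1 (ENSMUSG00000054072, chromosome 18, plus strand) had 601, 687 and 476 CPM in KO HFCF livers and 545, 466 and 622 CPM in KO chow livers, against 327, 390 and 354 CPM in WT HFCF livers and 259, 277 and 298 CPM in WT chow livers. The genotypes did not overlap, and among the 10 genes Iigp1 had the smallest genotype fold on either diet. Iigp1 rose by 0.72 ± 0.13 on HFCF (edgeR adjusted p = 0.00224) and by 0.97 ± 0.13 on chow (edgeR adjusted p = 0.000477).

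Ifi47 (ENSMUSG00000078920, chromosome 11, 49076587 to 49096974, plus strand) had 43.1, 51.5 and 34 CPM in KO HFCF livers and 20.6, 22.7 and 40.4 CPM in KO chow livers, against 17.6, 10 and 11.2 CPM in WT HFCF livers and 13.9, 5.8 and 7.33 CPM in WT chow livers. KO chow replicate 3 lay within the KO HFCF range, apart from the other two. Ifi47 rose by 1.72 ± 0.31 on HFCF (edgeR adjusted p = 0.00175) and by 1.63 ± 0.33 on chow (edgeR adjusted p = 0.00515).

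Tgtp1 (ENSMUSG00000078922, chromosome 11, 48985327 to 48994172, minus strand) rested on few reads, with 8 to 20 counts per WT library. It had 4.43, 9.58 and 3.6 CPM in KO HFCF livers and 2.16, 1.59 and 4.92 CPM in KO chow livers, against 1.14, 0.695 and 0.773 CPM in WT HFCF livers and 1.22, 0.708 and 0.553 CPM in WT chow livers. KO HFCF replicate 2 and KO chow replicate 3 were the highest of their groups. Tgtp1 rose by 2.72 ± 0.48 on HFCF (edgeR adjusted p = 0.00158), the largest fold among the 10. On chow it rose by 1.80 ± 0.53 (edgeR adjusted p = 0.0357). That call was lost without WT chow replicate 2 (1.70, edgeR adjusted p = 0.0952), WT chow replicate 3 (1.58, 0.132) or KO chow replicate 3 (1.19, 0.148). Its near-identical copy Tgtp2 rose by 1.37 ± 0.29 on HFCF (edgeR adjusted p = 0.00478) and stood at 0.82 ± 0.31 on chow, not called (edgeR adjusted p = 0.0862). Gm12185 overlaps Tgtp1 on the same strand and rose by 1.96 ± 0.49 on HFCF (edgeR adjusted p = 0.0133) and by 2.48 ± 0.59 on chow (0.013). Olfr56 spans Tgtp1 and Ifi47 and was not called, at 1.12 ± 0.66 on HFCF (edgeR adjusted p = 0.272) and 0.59 ± 0.67 on chow (0.599). The strand setting of the counting is not given in the sources used here, so the split of reads among these rows is uncertain.

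Per transcript length, in the deposited FPKM, the order of the members was led by the same genes in every group. Iigp1 came first, at 183 ± 35 FPKM in KO HFCF, 179 ± 30 in KO chow, 116 ± 9.26 in WT HFCF and 88.1 ± 5.56 FPKM in WT chow livers (SD, n = 3 each). It alone made up 59% to 77% of the summed FPKM of the 10 genes in each library. The regulators Igtp and Irgm2 came next in every group, but their libraries overlapped in both WT groups. Igtp had 7.64 to 19.3 FPKM and Irgm2 7.73 to 14.3 FPKM in WT HFCF livers, and Igtp had 8.66 to 13.9 FPKM and Irgm2 8.57 to 11.8 FPKM in WT chow livers. Tgtp1 came last, at 1.79 ± 1.02 FPKM in KO HFCF, 0.93 ± 0.597 in KO chow, 0.275 ± 0.0749 in WT HFCF and 0.255 ± 0.11 FPKM in WT chow livers.

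Across groups, 8 members had the same order of mean CPM, with KO HFCF highest, then KO chow, WT HFCF and WT chow. Igtp and Irgm2 had KO chow first and KO HFCF second. Not every neighbouring step exceeded the spread. KO HFCF and KO chow libraries overlapped for 7 members, WT HFCF and WT chow for 6, and KO chow and WT HFCF for 2 (Gbp2 and Gbp3). For the other 8 members all 6 KO libraries exceeded all 6 WT libraries, as in 5.67% of all tested genes. KO HFCF libraries lay wholly above KO chow libraries in 13.1% of all tested genes, and WT HFCF above WT chow in 15.8%. For KO chow against WT HFCF, which differ in genotype and diet, no share over all genes was worked out.

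**Figure D3:**
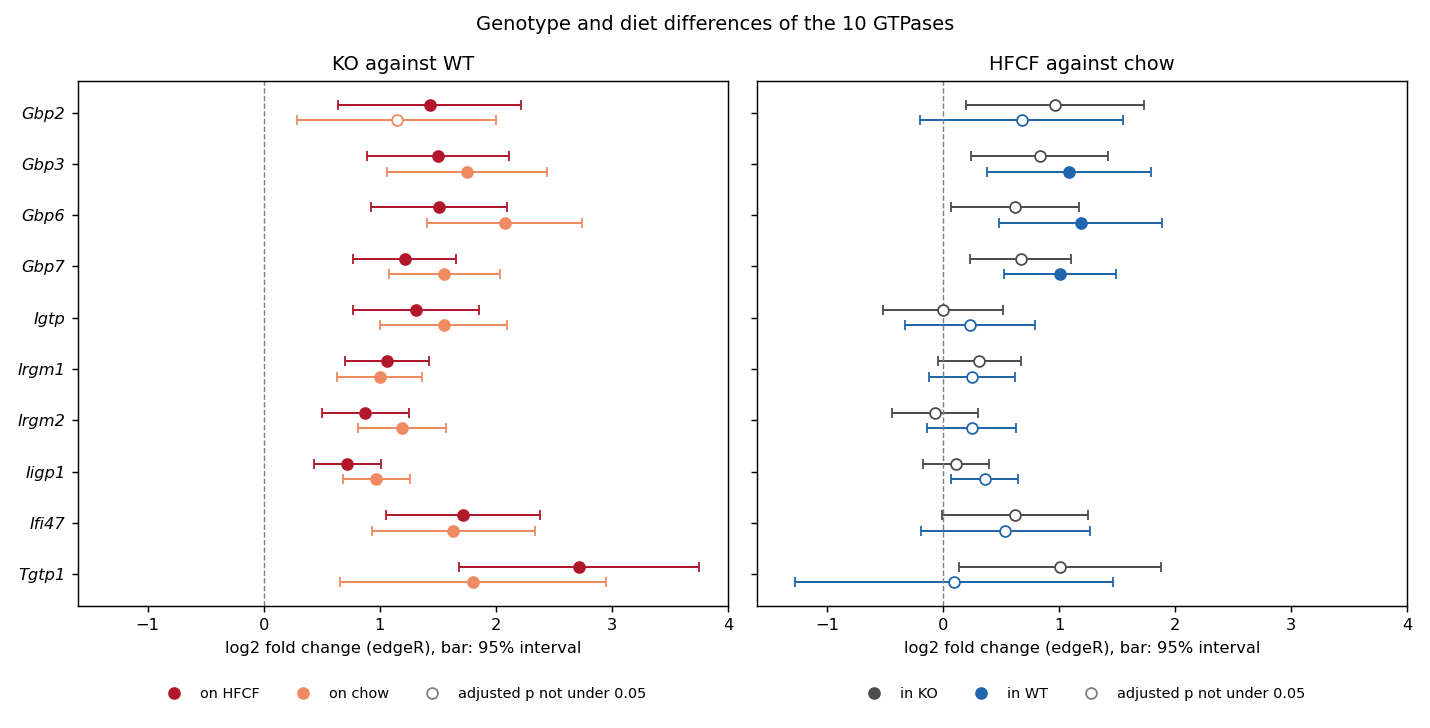
log2 fold changes of the 10 GTPases from edgeR, KO against WT on each diet (left) and HFCF against chow in each genotype (right). Bars are approximate 95% intervals derived from the F statistics, and filled points have an adjusted p under 0.05. Every genotype value is positive, and the filled diet values are those of Gbp3, Gbp6 and Gbp7 in WT.

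HFCF against chow asked whether the diet moved the GTPases in livers with and without Shp. In WT livers the 3 called members were all GBPs, in a comparison that called 7.76% of all genes up and 5.9% down. Gbp6 rose by 1.19 ± 0.33 (edgeR adjusted p = 0.0284), Gbp3 by 1.08 ± 0.33 (edgeR adjusted p = 0.0437) and Gbp7 by 1.01 ± 0.22 (edgeR adjusted p = 0.00994). Gbp2 was at 0.68 ± 0.41 and not called (edgeR adjusted p = 0.299, 95% interval -0.20 to 1.55). The 6 IRG genes had values of 0.10 to 0.54, with Iigp1 at 0.36 ± 0.13 (edgeR adjusted p = 0.0922) and none called in the fit of all 12 libraries. Iigp1 was called by DESeq2 (0.37, adjusted p = 0.0497) and by edgeR on the WT groups alone (0.37, adjusted p = 0.0446). WT HFCF libraries lay above WT chow libraries without overlap for Gbp3, Gbp6, Gbp7 and Iigp1, and for 15.8% of all genes.

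The WT calls of Gbp3, Gbp6 and Gbp7 changed with the livers used. Without WT HFCF replicate 1 only Gbp7 was called, and Gbp3 stood at 0.57 (edgeR adjusted p = 0.231) and Gbp6 at 0.80 (edgeR adjusted p = 0.145). Without WT chow replicate 2 only Gbp7 was called, with Gbp3 at 0.98 (edgeR adjusted p = 0.126) and Gbp6 at 1.06 (edgeR adjusted p = 0.0937), values near those with all livers. Without WT chow replicate 3 no member was called, with Gbp7 at 0.92 (edgeR adjusted p = 0.0501). Gbp6 also lost its call with WT chow replicate 1 left out, at a larger value of 1.34 (edgeR adjusted p = 0.0507). Irgm2 gained one without WT HFCF replicate 2 (edgeR adjusted p = 0.0419).

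In KO livers edgeR called 0 of the 10 genes for the diet, in a comparison that called 1.47% of all genes up and 1.18% down (2.65% in all). At an unadjusted p under 0.05 there were 5 (the 4 GBPs and Tgtp1), as for 17.9% of all genes, and DESeq2 called 1, Gbp7. Gbp2 stood at 0.96 ± 0.36, Gbp3 at 0.84 ± 0.27, Gbp7 at 0.67 ± 0.20 and Gbp6 at 0.62 ± 0.26, with the lowest edgeR adjusted p = 0.0936 for Gbp7. Tgtp1 was at 1.01 ± 0.40 and Ifi47 at 0.62 ± 0.29. None of the regulators was called, with Igtp at -0.00 ± 0.24 (95% interval -0.52 to 0.52), Irgm2 at -0.07 ± 0.17 (-0.44 to 0.30) and Irgm1 at 0.31 ± 0.17 (-0.04 to 0.67). Libraries did not overlap for Gbp2, Gbp3 and Gbp7, as in 13.1% of all genes.

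Whether the genotype difference depended on the diet was tested as the interaction, which called 0 of 10 members and 0.794% of all genes. No member had an unadjusted p under 0.05, against 13.2% of all genes, and DESeq2 also called 0. Estimates ran from -0.57 ± 0.42 for Gbp6 to 0.91 ± 0.76 for Tgtp1, with edgeR adjusted p-values of 0.62 to 0.967. The 95% interval was narrowest for Iigp1, at -0.66 to 0.16, and widest for Tgtp1, at -0.73 to 2.56. The 4 comparisons share libraries, each group entering 2 of them.

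The balance between the GTPase families differed by diet. GBPs had a median log2 fold change of 1.05 for HFCF in WT, against 0.25 for the regulators and 0.36 for the effectors, and of 0.75 in KO, against -0.00 and 0.62. The mean log2 CPM of the 4 GBPs minus that of the 6 IRG genes was -1.11, -1.01 and -1.17 in KO HFCF livers and -1.55, -1.51 and -1.52 in KO chow livers. It was -0.90, -1.24 and -1.35 in WT HFCF livers and -1.71, -1.99 and -1.78 in WT chow livers. In both genotypes each HFCF liver lay above each chow liver, and the genotypes overlapped on HFCF and not on chow. This measure was chosen after the values were seen and was not tested.

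**Figure D4:**
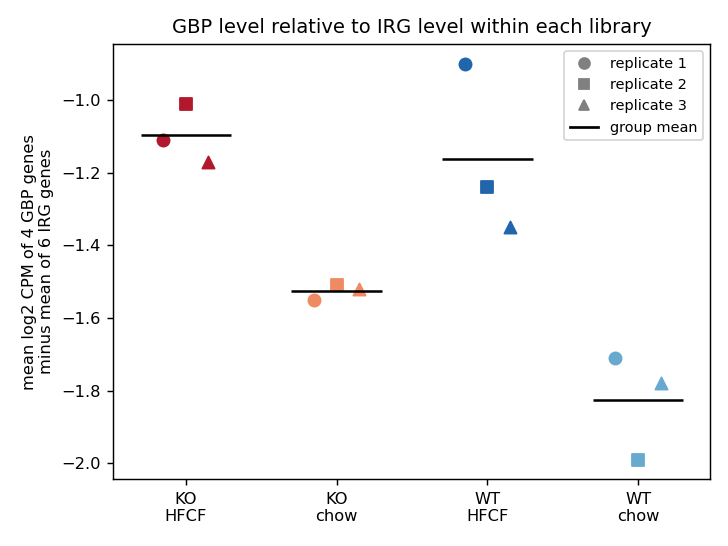
Mean log2 CPM of Gbp2, Gbp3, Gbp6 and Gbp7 minus the mean of the 6 IRG genes in each library, by group; symbols are replicates and lines group means (n = 3). HFCF livers sit between -1.35 and -0.90, and chow livers between -1.99 and -1.51.

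The members also varied together from liver to liver. KO HFCF replicate 2 had the highest value of its group for all 10 genes and KO HFCF replicate 3 the lowest for all 10. KO chow replicate 3 was highest for 9 (not Irgm2), and WT chow replicate 1 and WT HFCF replicate 1 were each highest for 9 (not Iigp1). Iigp1 was lowest in those WT replicate 1 libraries. Over the 12 libraries the 45 pairs of members had a Pearson r of 0.778 to 0.989 (median 0.911), which holds the shared group differences. After subtracting group means it was -0.21 to 0.951 (median 0.78). Against the mean of the other 9 genes, this within-group r was 0.244 for Iigp1, 0.647 for Irgm2 and 0.849 to 0.948 for the others.

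By the same measure, Pearson r over 12 libraries with the mean profile of the 10 genes, the 6 most similar of 13340 other genes were Gm12250, Ddx60, Ifih1, Trim30a, Tap1 and Serpina3g, at 0.987 to 0.972. Gm12250, which RefSeq lists with the synonym Irgb10 and which is thus itself an IRG gene, had an r of 0.987, and 0.979 within groups. Its CPM were 10.8, 13.4 and 7.48 in KO HFCF livers and 4.65, 4.55 and 8.63 in KO chow livers, against 5.23, 2.16 and 2.96 in WT HFCF livers and 2.86, 1.7 and 1.73 in WT chow livers. Like most members it was highest in KO HFCF replicate 2, KO chow replicate 3 and replicate 1 of both WT groups. Ddx60 and Ifih1 (the RNA sensor MDA5) belong to antiviral RNA sensing, Trim30a is an interferon-induced ubiquitin ligase gene, Tap1 encodes a subunit of the peptide transporter for MHC class I, and Serpina3g encodes a serine protease inhibitor.

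The wider families and the pathway were read from lists of known genes. Over all tested genes, 10.6% were called up and 8.52% down in KO on HFCF, and 9.72% up and 5.82% down on chow. These are the shares to set beside the KO counts of each list below. Of 17 other GBP and IRG genes tested, 11 rose and 0 fell in KO on HFCF (median log2 fold change 1.19, against 0.02 over all genes), and 10 rose and 0 fell on chow (0.96, against 0.00). Gbp11 rose by 2.07 ± 0.19 on HFCF (edgeR adjusted p = 1.11e-05) and by 1.23 ± 0.24 on chow (0.00395), and Gvin1, a very large interferon-inducible GTPase gene, by 2.33 ± 0.36 (0.000629) and 2.35 ± 0.42 (0.0027). For the diet, Gbp11 was called in WT, at 0.91 ± 0.24 (edgeR adjusted p = 0.0261), and in KO, at 1.74 ± 0.19 (0.000212). Its interaction was not called (0.83 ± 0.31, edgeR adjusted p = 0.253). The WT call was lost without WT chow replicate 1 or 2 or WT HFCF replicate 2 or 3. In KO, Gbp11 was the 1 diet call among these 17 genes, where 1.47% of all genes were called up. That count was 3 with DESeq2, in the compared groups alone or without KO chow replicate 3, and 2 without KO HFCF replicate 3. The count on chow was 6 when WT chow replicate 2 was left out and 5 when replicate 3 was. On either diet it was 6 with a minimum count of 50, a setting that leaves genes with few reads untested.

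For the signalling that leads to the GTPases, 10 of 14 tested genes rose in KO on HFCF (median 0.53) and 8 on chow (median 0.57), and 0 fell on either. The receptor subunit Ifngr1 rose by 0.38 ± 0.08 on HFCF (edgeR adjusted p = 0.00638) and was not called on chow (0.13 ± 0.08, 0.317). The other subunit, Ifngr2, rose by 0.45 ± 0.12 on chow (edgeR adjusted p = 0.0245) and was not called on HFCF (0.08 ± 0.12, 0.715). The transcription factor Irf1 rose by 0.80 ± 0.14 on HFCF (edgeR adjusted p = 0.00148), and Stat2, which carries the type I signal, by 0.66 ± 0.10 on HFCF (0.000451) and 0.53 ± 0.10 on chow (0.00286). Nlrc5, the activator of MHC class I genes, rose by 1.01 ± 0.12 on HFCF (edgeR adjusted p = 6.49e-05) and 0.72 ± 0.12 on chow (0.00135). The HFCF count was 6 without WT HFCF replicate 2, 6 without KO HFCF replicate 1 and 5 without KO HFCF replicate 2. Ifng itself, Il12a and Il12b were not analysed here.

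Other interferon-gamma targets rose in KO for 11 of 22 genes on HFCF (median 0.53) and 14 on chow (median 0.81), with 0 falling. Psmb8, an immunoproteasome subunit, rose by 1.26 ± 0.18 on HFCF (edgeR adjusted p = 0.000275) and 1.05 ± 0.18 on chow (0.00206), and Tap1 by 0.97 ± 0.17 (0.00135) and 1.15 ± 0.18 (0.000849). The HFCF count was 17 without WT HFCF replicate 1, 6 without WT HFCF replicate 2 and 6 without KO HFCF replicate 2. The chow count was 8 and 7 when WT chow replicate 2 or 3 was left out, and 9 when KO chow replicate 3 was.

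Type I interferon-stimulated genes moved in the same comparisons: 22 of 24 rose in KO on HFCF (median 1.17) and 19 on chow (median 1.52), with 0 falling. Irf7, a type I interferon regulator, rose by 1.66 ± 0.15 on HFCF (edgeR adjusted p = 9.42e-06) and 1.98 ± 0.16 on chow (4.9e-06), and Usp18, an inhibitor of type I signalling, by 2.18 ± 0.22 (2.03e-05) and 2.78 ± 0.24 (9.31e-06). With HFCF, 12 of the 24 rose in WT and 5 in KO, where 7.76% and 1.47% of all genes were called up. The WT count was 7 without WT chow replicate 2, WT chow replicate 3 or WT HFCF replicate 1. The KO count was 0 when replicate 1 of KO chow or of KO HFCF was left out, 1 when KO chow replicate 2 was, 2 when KO HFCF replicate 2 was and 10 when KO HFCF replicate 3 was. DESeq2 called 11.

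Loading of IRG proteins and GBPs onto vacuoles in mouse cells needs the ubiquitin-like conjugation system of autophagy. Of 12 genes of that system and its targets, 0 rose and 3 fell in KO on HFCF (median -0.16), and 0 rose and 5 fell on chow (median -0.23). Of all tested genes, 8.52% fell on HFCF and 5.82% on chow. Map1lc3a, an ATG8 family gene, had 25.2 ± 2.92 CPM in KO HFCF and 28.1 ± 1.58 in KO chow livers, against 43 ± 5.15 in WT HFCF and 48.6 ± 2.87 in WT chow livers. It fell by 0.77 ± 0.10 on HFCF (edgeR adjusted p = 0.000222) and by 0.79 ± 0.10 on chow (0.000318). Gabarapl1, of the same family, had 352 ± 13.8 CPM in KO HFCF and 345 ± 13.6 in KO chow livers, against 549 ± 11.5 in WT HFCF and 501 ± 39 in WT chow livers. It fell by 0.64 ± 0.08 on HFCF (edgeR adjusted p = 0.000111) and by 0.54 ± 0.08 on chow (0.000656), and Atg3, the conjugating enzyme, by 0.23 ± 0.07 (0.0401) and 0.26 ± 0.07 (0.03). The chow count was 2 or 3 without any 1 chow library.

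GBPs also act upstream of inflammatory caspases. Of 7 inflammasome and caspase genes, 5 rose in KO on HFCF (median 0.78) and 2 on chow (median 0.72), with 0 falling. Of all tested genes, 10.6% rose on HFCF and 9.72% on chow. Casp4 (caspase-11 in the mouse) rose by 1.02 ± 0.25 on HFCF (edgeR adjusted p = 0.0118) and was not called on chow (0.73 ± 0.26, 0.0682). Pycard (ASC) rose by 1.46 ± 0.32 on chow (edgeR adjusted p = 0.00847) and was not called on HFCF (0.75 ± 0.29, 0.0915). The HFCF count was 2 without WT HFCF replicate 2, WT HFCF replicate 3 or KO HFCF replicate 1, and 1 without KO HFCF replicate 2. The chow count was 1 without WT chow replicate 1, 2 or 3 or KO chow replicate 2.

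**Figure D5:**
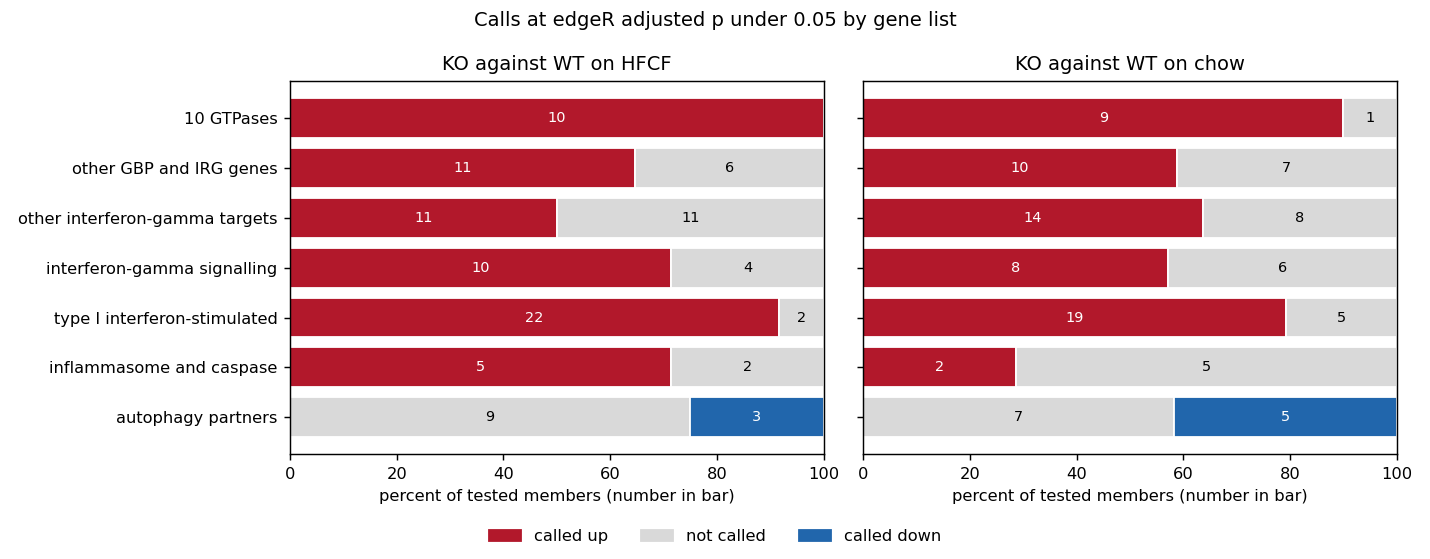
Share of the tested genes of each list called up (red), not called (grey) or called down (blue) in KO against WT on HFCF (left) and on chow (right), with the number of genes in each bar. Calls are up in 6 lists, from 10 of 10 GTPases to 2 of 7 inflammasome genes, and down in the list of autophagy partners.

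Markers of several cell types were higher in the same livers as the GTPases. For the counts of markers rising in KO, the shares over all tested genes were 10.6% on HFCF and 9.72% on chow. The 10 macrophage and monocyte markers summed to 534 to 609 CPM in KO HFCF and 409 to 444 CPM in KO chow livers, against 214 to 429 CPM in WT HFCF and 200 to 247 CPM in WT chow livers. Of these, 6 rose in KO on HFCF and 8 on chow, and 0 were at 0 in any library. WT HFCF replicate 1 held the 429 CPM, against 257 and 214 CPM in replicates 2 and 3. It was the WT HFCF liver with the highest level of 9 GTPases, all except Iigp1. The 7 Kupffer cell markers summed to 605 to 643 CPM in KO HFCF and 417 to 431 CPM in KO chow livers, against 238 to 481 CPM in WT HFCF and 264 to 304 CPM in WT chow livers, with 6 rising on HFCF and 2 on chow.

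The 6 B cell markers summed to 144 to 166 CPM in KO HFCF and 286 to 383 CPM in KO chow livers, against 6.06 to 10.9 CPM in WT HFCF and 7.08 to 10.3 CPM in WT chow livers, with 2 rising on HFCF and 6 on chow. Igkc led them at 6.89 ± 0.17 on HFCF (edgeR adjusted p = 1.74e-11) and 7.54 ± 0.17 on chow (4.26e-12). Natural killer cell markers with values, 6 of 10 listed, summed to 6.92 to 9.74 CPM in KO HFCF and 4.76 to 6.68 CPM in KO chow livers, against 1.88 to 3.07 CPM in WT HFCF and 1.63 to 4.07 CPM in WT chow livers. Of the 4 that were tested, 4 rose on HFCF and 1 on chow. T cell markers summed to 11.8 to 19.2 CPM in KO HFCF and 8.28 to 14.8 CPM in KO chow livers, against 34.2 to 65.2 CPM in WT HFCF and 4.63 to 7.22 CPM in WT chow livers. That WT HFCF sum was led by Themis, which fell by 3.04 ± 0.33 in KO on HFCF (edgeR adjusted p = 4.67e-05), while 4 of 7 tested T cell markers rose. Cd3e, Cd3d, Trac, Gzma and Xcl1 were at 0 in at least 1 library, and no listed marker with values was at 0 in all 12. The listed markers Ncr1, Eomes, Tbx21, Prf1, Retnlg, Cxcr2, Ly6g, Alb and Tf had no values here.

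Endothelial markers summed to 541 to 592 CPM in KO HFCF and 578 to 615 CPM in KO chow livers, against 550 to 610 CPM in WT HFCF and 539 to 558 CPM in WT chow livers, with 1 of 9 rising and 1 falling on HFCF and 0 on chow. Those HFCF counts are near the shares over all genes, 10.6% rising and 8.52% falling. Hepatocyte markers summed to 58400 to 60500 CPM in KO HFCF and 54300 to 63800 CPM in KO chow livers, against 51600 to 58300 CPM in WT HFCF and 63900 to 65700 CPM in WT chow livers. The KO sums thus lay just above the WT sums on HFCF and just below them on chow. Of 8 tested hepatocyte markers, 1 rose and 2 fell on HFCF, and 0 rose and 3 fell on chow. Lists of other cell types were higher in KO on chow. The 8 stellate cell markers summed to 623 to 823 CPM in KO HFCF and 728 to 748 CPM in KO chow livers, against 702 to 817 CPM in WT HFCF and 521 to 637 CPM in WT chow livers, with 0 rising on HFCF and 3 on chow. Those 3 were the collagen genes Col1a1 (3.03 ± 0.42, edgeR adjusted p = 0.000459) and Col3a1 (1.77 ± 0.35, 0.00459) and the receptor gene Pdgfrb (0.75 ± 0.16, 0.00729). The 5 cholangiocyte markers summed to 49.2 to 71.3 CPM in KO HFCF and 57.7 to 95.3 CPM in KO chow livers, against 50.2 to 94.3 CPM in WT HFCF and 30.2 to 45 CPM in WT chow livers, with 0 rising on HFCF and 1 on chow.

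Dendritic cell markers, 6 genes, summed to 22.7 to 23.8 CPM in KO HFCF and 23.5 to 24.5 CPM in KO chow livers, against 17.6 to 23.9 CPM in WT HFCF and 17 to 18.4 CPM in WT chow livers, with 0 of 5 tested rising on HFCF and 3 on chow. Neutrophil markers, 3 genes, summed to 5.1 to 6.47 CPM in KO HFCF and 4.93 to 6.7 CPM in KO chow livers, against 2.06 to 3.7 CPM in WT HFCF and 2.62 to 3.36 CPM in WT chow livers, with 1 rising on either diet. The stellate, cholangiocyte and dendritic sums overlapped between genotypes on HFCF and not on chow, and the neutrophil sums overlapped on neither. The part of any of these cell types in the GTPase differences was not tested.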

How the data were processed

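Total RNA from 12 livers was made into stranded, ribosome-depleted libraries, per the labels' protocols. The authors deposited a table of whole-number counts, 1 row for each Ensembl gene, and FPKM in the same table, per the file headers. The deposited counts were tested as they stood. The FPKM equaled count divided by gene length and library total, and served only to order members by level. Per the submitters' processing notes, reads were placed on mm10. The aligner, counter, strand setting and annotation release are not given in the sources used here. Table starts were read as counted from 0, since 70% of 15062 GENCODE starts were 1 higher, and are printed counted from 1.

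Genes were kept by filterByExpr (minimum count 10, minimum total 15), which left 14736 and removed 1110. After a test on simulated counts, edgeR 4.0.16 in R 4.3.3 (TMM factors, glmQLFit and glmQLFTest) fitted 4 group means with no covariate. The common biological coefficient of variation came to 0.119. A call needs an adjusted p under 0.05. Log values used a prior count of 2. No library repeated another: within groups, chi-square over its degrees of freedom was 11.21 to 34.42. Figures used Python 3.11.15 and matplotlib 3.10.9.

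Alternatives were RLE scaling, no filter, a minimum count of 50, the replicate number as a block, DESeq2 1.42.0, fits restricted to the groups compared, and fits that each omit 1 library. The members and lists were chosen with earlier results of these data known. The rule named all members, Nr0b2, up to 4 genes of a list with the lowest adjusted p in a contrast, the 6 genes most like the members' mean among those with at least 1 CPM, and copies or overlapping genes. Examples were picked from these after their values were seen. The values of 1 gene of the signalling list are not reported here.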

Additional observations from a re-analysis of the deposited data

How the results depend on the processing

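Of 650 alternative values of the members, 602 kept direction and side of the threshold, 15 lost a call, 7 gained one and 26 changed sign, all of the last among values that were not called. With 1 library left out, the number of GTPases called ran from 9 to 10 for KO against WT on HFCF, 8 to 10 on chow, 0 to 4 for HFCF in WT (0 when WT chow replicate 3 was omitted, 1 when WT chow replicate 2 or WT HFCF replicate 1 was) and 0 to 0 for HFCF in KO and the interaction. For HFCF in KO, DESeq2 called 1 (Gbp7) and the compared groups alone 1 (Gbp3). With the replicate block the counts were 10, 8, 3, 0 and 0 in the same order, with Tgtp1 on chow at an edgeR adjusted p = 0.0532. Replicate numbers did not pair the livers: the 18 same-number correlations ran from -0.148 to 0.167, 4 of them over 0.1.

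The sign of Igtp for HFCF in KO, near 0 throughout, was positive with RLE scaling (0.0013), no filter (0.001), the replicate block (0.0036) and DESeq2 (0.0031), and ran from -0.17 to 0.11 with 1 library left out. Such ranges also crossed 0 for HFCF in KO of Irgm2 (-0.14 to 0.0034) and Iigp1 (-0.0224 to 0.24), for HFCF in WT of Igtp (-0.16 to 0.50) and Tgtp1 (-0.16 to 0.49), and for the interaction of Gbp2 (-0.28 to 0.72), Gbp3 (-0.52 to 0.27), Igtp (-0.50 to 0.16), Irgm1 (-0.13 to 0.24) and Ifi47 (-0.39 to 0.45). The cause was not tested. Over the whole table the calls for HFCF in KO, 390, were 656 with DESeq2, 603 in the compared groups alone and 157 to 336 with 1 library left out. Those for HFCF in WT, 2013, ran from 1100 to 2264, those for KO on chow, 2289, from 1152 to 1691, and those for the interaction, 117, from 11 to 136 (344 with DESeq2). WT counts of 8 to 20 limit the precision of Tgtp1.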
